A study of Homo sapiens with 4 samples.

Results

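Genes of the cyclin-dependent kinase inhibitors, of the ubiquitin ligase receptor SKP2 and of the CKS proteins were compared between esophageal squamous carcinoma cells with silenced *FOXM1* and control cells. The genes were taken by name: *CDKN1A*, *CDKN1B* and *CDKN1C* of the Cip/Kip family, *CDKN2A*, *CDKN2B*, *CDKN2C* and *CDKN2D* of the INK4 family, and *SKP2*, *CKS1B* and *CKS2*. Of these 10 genes, 8 had a row of the array annotated with their symbol alone, among 14232 genes measured in that way. *CDKN2C* and *CKS1B* had no such row and were not analysed here, so the SKP2-CKS pair is described without *CKS1B*. Each of the 8 genes had 1 row.

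TE-1 is an established cell line from an esophageal squamous cell carcinoma. The TE-1-siFOXM1 group (2 arrays) received siRNA against *FOXM1*, and the TE-1-SCR group (2 arrays) received a scrambled siRNA. Per the methods, both were transfected by lipofection on consecutive days and harvested a day after the second transfection. All arrays thus come from 1 line under transfection, and no untransfected cells were analysed here. Nothing in the labels or methods says whether the replicates of a group were separate cultures. Each limma p-value here sets the group difference against the spread between arrays of 1 group, partly pooled across probe sets. That spread may be technical.

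Progression from G1 into S phase depends on cyclin-dependent kinases (CDKs), which the inhibitors hold back. The Cip/Kip proteins p21, p27 and p57 bind complexes of cyclins E and A with CDK2, while the INK4 proteins bind CDK4 and CDK6. SKP2 is the F-box receptor of an SCF ubiquitin ligase that marks phosphorylated p27, and also p21, for degradation, and CKS1, encoded by *CKS1B*, is the cofactor that lets SKP2 recognize p27. CKS2 is the close paralog of CKS1 and binds mitotic CDKs and the anaphase-promoting complex. FOXM1 is known from other cell types to drive *SKP2* and *CKS1B*, which is the question these genes pose here. The arrays measured mRNA and not the proteins on which this ligase acts.

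The sequence before the start site of these genes is shown because FOXM1 reaches many cell cycle genes through the MuvB complex, which binds the CHR element, whereas the forkhead domain itself recognizes a forkhead core. From RefSeq (GRCh38.p14), windows of 250 bases upstream of annotated start sites were read for 9 of the 10 genes, 12 windows in all. Both strands were searched for the CHR letters TTTGAA, the forkhead core TAAACA and the box CCAAT of the factor NF-Y, which often accompanies a CHR. Among all 35116 windows in the table, 13.3% held the CHR letters, 11% the forkhead core and 32% the NF-Y box. The paralogs *CKS2* and *CKS1B* are printed for their alike arrangement, *CDKN1A* and *SKP2* because their arrays separated by group, and *CDKN1B* for its forkhead core. Capitals mark the matches to any of the 3 motifs.
CKS2 (chr9:89310945-89311194, plus strand): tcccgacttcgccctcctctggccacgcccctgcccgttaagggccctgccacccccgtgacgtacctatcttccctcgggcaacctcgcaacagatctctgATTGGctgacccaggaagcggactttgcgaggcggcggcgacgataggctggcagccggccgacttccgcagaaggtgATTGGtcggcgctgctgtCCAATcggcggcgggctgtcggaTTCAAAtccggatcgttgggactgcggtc
CKS1B (chr1:154974431-154974680, plus strand): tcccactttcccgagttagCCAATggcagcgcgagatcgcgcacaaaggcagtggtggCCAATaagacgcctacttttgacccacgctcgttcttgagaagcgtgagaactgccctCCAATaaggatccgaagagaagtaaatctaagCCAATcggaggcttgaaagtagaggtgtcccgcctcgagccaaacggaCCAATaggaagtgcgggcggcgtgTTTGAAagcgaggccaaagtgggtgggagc
CDKN1A (chr6:36678464-36678713, plus strand): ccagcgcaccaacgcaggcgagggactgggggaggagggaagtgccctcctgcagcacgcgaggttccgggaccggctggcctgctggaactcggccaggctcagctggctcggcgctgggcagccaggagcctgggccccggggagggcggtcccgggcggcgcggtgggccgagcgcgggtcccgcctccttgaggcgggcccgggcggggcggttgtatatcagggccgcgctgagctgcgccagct
SKP2 (chr5:36151861-36152110, plus strand): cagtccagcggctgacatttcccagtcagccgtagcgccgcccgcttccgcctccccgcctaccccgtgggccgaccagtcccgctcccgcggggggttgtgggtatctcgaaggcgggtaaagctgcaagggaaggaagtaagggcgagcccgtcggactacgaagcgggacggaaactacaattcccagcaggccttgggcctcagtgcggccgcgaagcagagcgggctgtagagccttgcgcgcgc
CDKN1B (chr12:12717118-12717367, plus strand): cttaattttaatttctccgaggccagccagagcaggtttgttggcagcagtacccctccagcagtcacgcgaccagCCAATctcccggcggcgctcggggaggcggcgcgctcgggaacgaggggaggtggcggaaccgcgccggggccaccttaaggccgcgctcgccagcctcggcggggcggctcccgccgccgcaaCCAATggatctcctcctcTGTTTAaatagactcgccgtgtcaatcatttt

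Only *CKS2* and *CKS1B* held the CHR letters among the 9 genes searched. In *CKS2* they lay on the opposite strand, 29 to 24 bases before the start site, and in *CKS1B* on the strand of the gene, 30 to 25 bases before it. *CKS2* had 3 NF-Y boxes, the nearest at 52 to 48 bases, and *CKS1B* had 5, the nearest at 54 to 50 bases. The *CDKN1B* window held 1 forkhead core at 32 to 27 bases and 2 NF-Y boxes. The windows of *CDKN1A*, *CDKN2A*, *CDKN2B* and *SKP2* held no match. *CDKN2D* held 1 NF-Y box, *CDKN2C* held 1 forkhead core and 1 NF-Y box in different windows of its 3, and no match overlapped another. A match is a run of letters in the window and not a binding site. The paper gives the forkhead motif of FOXM1 in another form, RYAAAYA, which was not searched here.

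**Figure D1:**
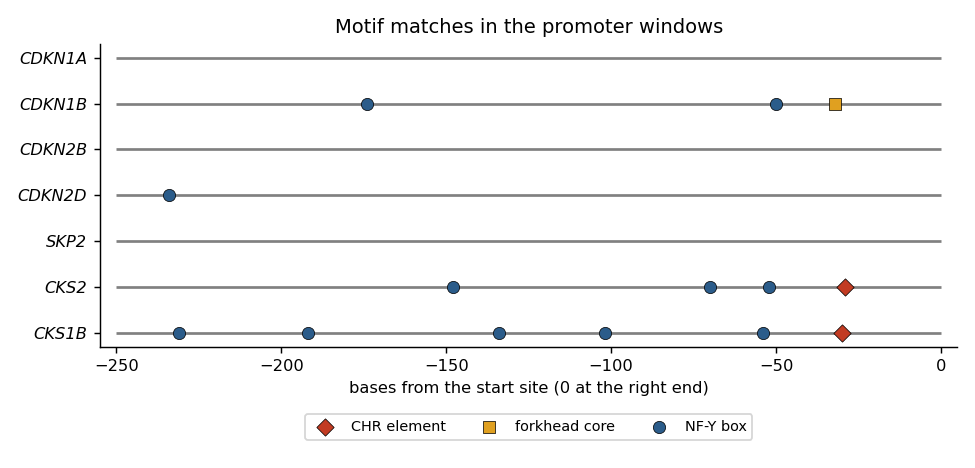
Matches to the CHR letters (diamonds), the forkhead core (square) and the NF-Y box (circles) on either strand, plotted by the number of bases from the start site, in the windows of 250 bases of the 7 genes with 1 window. The CHR letters were found in *CKS2* and *CKS1B*, at 29 and 30 bases before the start site.

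*FOXM1* itself checked the labels. Its log2 expression was 8.28 and 8.06 on the TE-1-siFOXM1 arrays and 10.55 and 9.75 on the TE-1-SCR arrays, which left 25.3% of the control level. Limma gave *FOXM1* an unadjusted p of 0.00126. After adjustment over all probe sets no probe set passed, that of *FOXM1* included. The adjusted p of the genes below therefore does not separate them from the silenced gene itself and is no evidence of an unchanged level. The median of an array lay between 7.54 and 7.63, and correlations between arrays ran from 0.984 to 0.992. Of 8 epithelial markers 5 were measured, and *EPCAM* (11.49 to 11.81), *CDH1* (10.88 to 11.04), *KRT8* (13.35 to 13.67) and *KRT18* (10.87 to 11.17) were far above the array medians and *KRT14* (7.70 to 8.15) was close to them, while the squamous markers *KRT5*, *KRT6A* and *TP63* were not analysed here. Of 8 markers of other cell types 7 were measured. The leukocyte markers *PTPRC* (3.50 to 3.74) and *CD3E* (4.21 to 4.44) were far below the medians. The endothelial marker *PECAM1* (4.77 to 5.04) was far below them and *VWF* (6.41 to 6.58) less so. Among fibroblast genes, *DCN* (3.57 to 4.06) was far below them, while *COL1A1* (7.70 to 7.92) and *COL1A2* (7.35 to 7.69) were close to them. *DCN* had the highest difference between the groups of these 7 markers (0.31) and *PTPRC* the lowest (-0.15). Without overlap were 3 of the 7, *DCN* and *CD3E* (0.15) higher and *PTPRC* lower. Of all genes, 13.5% were higher and 13.8% lower without overlap.

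*CDKN1A*, which encodes p21 and is the classic p53 target among the inhibitors, was lower after *FOXM1* silencing on both arrays. Its log2 expression was 9.45 and 9.71 in TE-1-siFOXM1 cells (9.58 ± 0.19, SD, n = 2) and 9.99 and 10.19 in TE-1-SCR cells (10.09 ± 0.14, SD, n = 2). Both silenced arrays lay below both control arrays. The difference was -0.51 (standard error 0.17, 95% interval -0.95 to -0.07), which left 70.1% of the control level. This 1.43-fold difference stayed short of the 1.5-fold criterion of the study. Limma gave an unadjusted p of 0.0301 and an adjusted p of 1 over all probe sets. The siFOXM1 array differed from the SCR array of the same number by -0.54 for replicates 1 and by -0.48 for replicates 2. Of all genes, 109 had a difference as low or lower, or 0.766%. The interval and the unadjusted p take no account of the number of genes tested.

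The difference of *CDKN1A* depended on which arrays entered it only in size. It was -0.61 without SCR replicate 1 and -0.65 when siFOXM1 replicate 2 was left out, both past 1.5-fold, and -0.41 without SCR replicate 2 and -0.38 when siFOXM1 replicate 1 was left out. In RNA from a whole culture, fewer cells that express a gene and less RNA per cell cannot be told apart.

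*SKP2* was slightly lower on both TE-1-siFOXM1 arrays. On the log2 scale its expression was 10.94 and 10.87 in TE-1-siFOXM1 cells (10.90 ± 0.05, SD, n = 2) and 11.24 and 10.97 in TE-1-SCR cells (11.10 ± 0.19, SD, n = 2). The groups did not overlap, but the nearest arrays, siFOXM1 replicate 1 and SCR replicate 2, were separated by far less than the control arrays were from each other. The difference was -0.20 (standard error 0.16, 95% interval -0.61 to 0.21), and 87.1% of the control level was left, against 25.3% for *FOXM1*. The lower bound of this interval corresponds to a level 1.53-fold lower. Limma gave an unadjusted p of 0.269 and an adjusted p of 1. Of all genes, 9.51% had a difference as low or lower. Without SCR replicate 1 the difference was -0.06, and without SCR replicate 2 it was -0.33.

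*CKS2* separated the arrays by replicate number and not by treatment. Its log2 expression was 11.21 on siFOXM1 replicate 1 and 11.22 on SCR replicate 1, against 10.06 on siFOXM1 replicate 2 and 9.94 on SCR replicate 2. The replicates numbered 1 were therefore higher by 1.15 in silenced cells and by 1.28 in control cells, a mean of 1.21 or 2.32-fold, whereas the difference after silencing was 0.06 (standard error 0.57, 95% interval -1.41 to 1.52, adjusted p = 1 from limma). Between arrays of the same number, silenced cells differed from control cells by -0.01 and 0.12. Of 14232 genes, 8 including *CKS2* had a difference between replicate numbers of this size or larger in that direction, or 0.0562%. No source used here says what the replicate number stands for. Whether the probes of *CKS2* also capture its paralog *CKS1B* was not tested.

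Leaving out 1 array unbalances the replicate numbers, and *CKS2* then moved from -0.58 without SCR replicate 2 and -0.52 when siFOXM1 replicate 1 was left out to 0.70 without SCR replicate 1 and 0.63 when siFOXM1 replicate 2 was left out. The interval from all 4 arrays reaches from a level 2.66-fold lower to one 2.88-fold higher, and its width comes with the difference between replicate numbers. With the replicate number as a block in limma, the interval was -0.25 to 0.36, inside the 1.5-fold criterion on both sides. No source used here states that the numbers pair the arrays.

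*CDKN1B*, which encodes p27, followed the replicate number as well. The arrays read 9.02 and 8.61 in TE-1-siFOXM1 cells (8.81 ± 0.29, SD, n = 2) and 9.42 and 8.43 in TE-1-SCR cells (8.92 ± 0.70, SD, n = 2), and the control arrays enclosed the silenced ones. Replicates 1 were higher than replicates 2 by 0.41 in silenced cells and by 0.99 in control cells. The difference after silencing was -0.11 (standard error 0.37, 95% interval -1.07 to 0.85, adjusted p = 1 from limma). It was -0.40 between the arrays numbered 1 and 0.18 between those numbered 2, so that even its sign depended on the number. Without SCR replicate 1 it was 0.39, and without SCR replicate 2 it was -0.61, past the 1.5-fold criterion. At least 1.5-fold higher in replicates 1 were *CKS2* and *CDKN1B*, 2 of the 8 genes, against 2.66% of all genes.

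**Figure D2:**
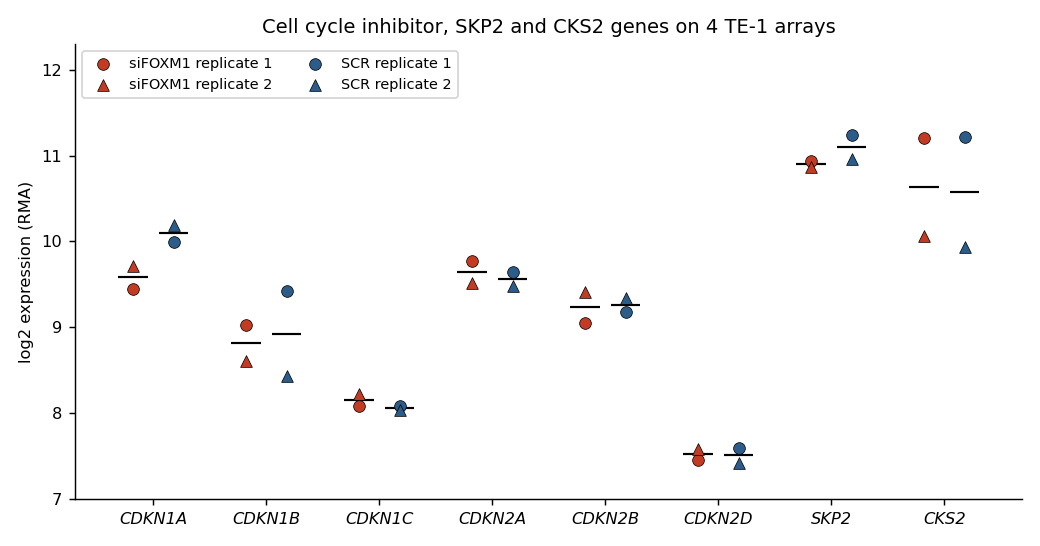
Log2 expression (RMA) of the 8 measured genes on each array, with red for TE-1-siFOXM1, blue for TE-1-SCR, circles for replicate 1, triangles for replicate 2 and bars for group means (n = 2). *CDKN1A* separated by color, with silenced cells at 9.45 and 9.71 and control cells at 9.99 and 10.19, while *CKS2* separated by marker shape, near 11.2 for replicates 1 and at 10.06 and 9.94 for replicates 2.

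**Figure D3:**
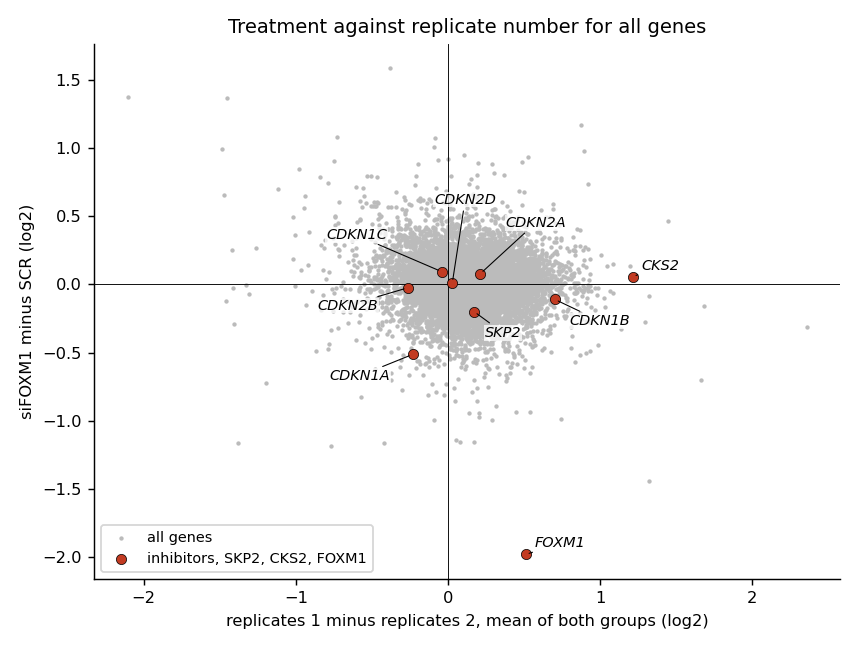
Difference between treatments (vertical axis, siFOXM1 minus SCR, log2) against difference between replicate numbers (horizontal axis, replicates 1 minus replicates 2, averaged over both groups, log2), with each of the 14232 genes as a gray point. *CKS2* lies at 1.21 on the horizontal and 0.06 on the vertical axis, *CDKN1A* at -0.23 and -0.51, and *FOXM1* at 0.51 and -1.98.

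*CDKN1C*, which encodes p57, the inhibitor whose gene is imprinted, differed little between the groups. Values on the log2 scale were 8.08 and 8.22 in TE-1-siFOXM1 cells and 8.08 and 8.03 in TE-1-SCR cells, with overlap at the arrays numbered 1. The difference was 0.09 (standard error 0.14, 95% interval -0.27 to 0.46, adjusted p = 1 from limma). Unlike *CDKN1B*, its replicates of 1 group lay within 0.14 of each other. Among the 3 Cip/Kip genes, *CDKN1A* was thus the only one without overlap, and the median difference was -0.11.

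The INK4 genes were close to their control levels. *CDKN2A* encodes p16, and from another reading frame ARF, which stabilizes p53, and the array row gives 1 value that does not separate their transcripts. Log2 values were 9.77 and 9.51 in TE-1-siFOXM1 cells and 9.64 and 9.48 in TE-1-SCR cells. The groups overlapped, and the difference was 0.08 (standard error 0.16, 95% interval -0.35 to 0.51, adjusted p = 1 from limma). *CDKN2B* encodes p15, a target of TGF-beta signaling next to *CDKN2A* on 9p21, and its log2 expression was 9.05 and 9.42 in silenced and 9.18 and 9.34 in control cells. Its replicates numbered 2 were the higher ones in both groups, by 0.36 and 0.17, the reverse of *CKS2*. The difference after silencing was -0.02 (95% interval -0.50 to 0.45). *CDKN2D*, which encodes p19 of this family, had log2 expression of 7.46 and 7.58 in silenced and 7.60 and 7.42 in control cells, near the median of the arrays, with a difference of 0.01 (95% interval -0.37 to 0.40). These 3 intervals allow levels up to 1.41-fold lower or 1.42-fold higher at most, so a change by the 1.5-fold criterion lay outside each of them.

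**Figure D4:**
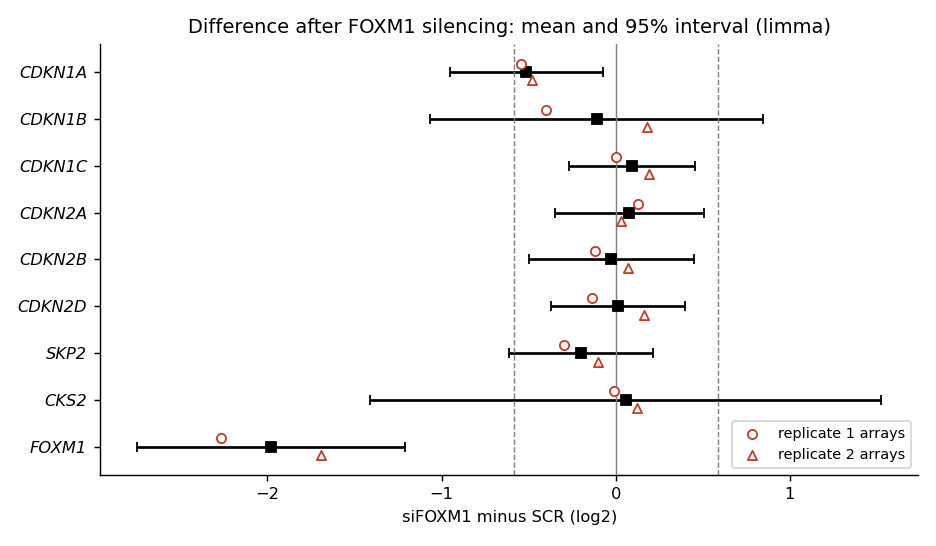
Silenced minus control differences in TE-1 cells on the log2 scale (squares, with 95% intervals from limma, 2 arrays a group), with the difference between the arrays numbered 1 (open circles) and numbered 2 (open triangles) and dashed lines at 1.5-fold. *CDKN1A* at -0.51 and *FOXM1* at -1.98 have intervals below 0, and *CKS2* has the widest interval of the genes shown, from -1.41 to 1.52.

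Counted together, none of the 8 genes was at least 1.5-fold lower, against 0.45% of all genes, and none was at least 1.5-fold higher, against 0.562%. No gene of the 8 passed an adjusted p of 0.05 in limma, as did 0% of all genes, and at an unadjusted p under 0.05 there was 1, *CDKN1A*, against 1.83% of all genes and 680 of the 22011 probe sets. *CDKN1A* and *SKP2* had no overlap between the groups and were lower, 2 of 8, against 13.8% of all genes, and 0 of 8 had no overlap and were higher, against 13.5%. The median difference of the 8 genes was -0.01 and that of all genes was 0.00. An exact permutation test of 2 arrays against 2 has a smallest two-sided p of 0.333. Any gene without overlap reaches it by construction, *CDKN1A*, *SKP2* and *FOXM1* among them, so it adds nothing to the overlap.

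The mRNAs of proteins that assemble the SKP2 ligase showed small differences. Of 8 genes of the SCF core and of its activation by NEDD8, 6 were measured and none was 1.5-fold apart. *CDC34*, a ubiquitin-conjugating enzyme of SCF ligases, was the highest (0.17) and *SKP1*, the adaptor that holds SKP2, the lowest (-0.11), with a median of 0.08. *CUL1*, the scaffold, had log2 expression of 10.45 and 10.39 in silenced and 10.51 and 10.49 in control cells, without overlap but only -0.08 apart. *CAND1* of the same list was also without overlap, but higher, at 0.08. Of all genes, 13.8% were lower and 13.5% higher without overlap. Of 5 other F-box genes, 4 were measured and none was 1.5-fold apart, with *FBXW11*, a receptor for beta-catenin, at -0.30 and *BTRC*, its paralog, at 0.00. *FBXW11* and *FBXW7* (-0.17), the receptor for cyclin E and MYC, were lower without overlap, 2 of the 4, against 13.8% of all genes. Their unadjusted p in limma was 0.176 and 0.271.

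The anaphase-promoting complex, which with its activator CDH1 (*FZR1*) degrades SKP2 and CKS1 in G1, had 9 of 10 genes measured and none 1.5-fold apart. *CDC27* was the highest (0.25), *CDC16* the lowest (-0.12) and the median was 0.03. In 8 of these 9 genes the replicate numbered 1 was the higher in both groups, against 53.3% of all genes, with a median of 0.50 for the mean excess, against 0.10 over all genes, the same side as *CKS2* and *CDKN1B*. This also held for 4 of 4 other F-box genes, 9 of 11 transcriptional regulators and 7 of 10 cyclins and kinases. It held for 4 of 6 SCF genes, 4 of 7 genes of other ligases, 3 of 5 RB and E2F genes and 0 of 2 neighbors on 9p21. *CDC20*, the mitotic activator, had log2 expression of 12.39 and 12.49 on the arrays numbered 1 and 11.80 and 11.67 on those numbered 2. Of 8 genes of other ligases for p21 and p27, 7 were measured. They lay between -0.12 for *DTL*, the receptor of the CUL4 ligase that degrades p21 on chromatin, and 0.15 for *RCHY1*, with a median of -0.06.

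Among the kinases and cyclins that the inhibitors bind, 10 of 11 genes were measured, none was 1.5-fold apart and the median was -0.14. *CDK6*, a target of the INK4 proteins, had the highest difference (0.38). Its log2 expression was 10.82 and 10.71 in TE-1-siFOXM1 cells and 10.19 and 10.59 in TE-1-SCR cells, without overlap. *CCNB1*, the mitotic cyclin B1, had the lowest difference (-0.57), with 9.61 and 9.03 in silenced and 10.43 and 9.34 in control cells, which overlapped. The *CCNB1* difference was -0.82 between the arrays numbered 1 and -0.31 between those numbered 2, and replicates 1 were the higher by 0.59 in silenced and by 1.09 in control cells. It was -0.02 without SCR replicate 1, but past 1.5-fold without SCR replicate 2 (-1.11) and when siFOXM1 replicate 1 was left out (-0.86). *CCND3* and *CCNE1*, cyclins of G1 and of S phase entry, were without overlap at -0.26 and -0.21, and *CDK2* was at 0.05. Limma gave *CCND3* and *CCNE1* unadjusted p of 0.205 and 0.210. Without SCR replicate 1, *CCND3* was at -0.075 and *CCNE1* at -0.13. With *CDK6*, 3 of the 10 genes were without overlap, while 13.8% of all genes were lower and 13.5% higher without overlap. Of 6 genes of the RB and E2F families, 5 were measured, with a median of 0.08. *RBL1*, the pocket protein p107, was the highest (0.30) and *E2F2* the lowest (-0.09).

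Of 15 transcriptional regulators of the inhibitors, 11 were measured, none was 1.5-fold apart and the median was 0.01. *KLF6*, a zinc finger factor known to activate *CDKN1A*, was the highest at 0.47, with log2 expression of 10.40 and 10.03 in silenced and 9.78 and 9.70 in control cells. The groups did not overlap, and *KLF6* was the 1 gene among 54 measured genes of these further lists with an unadjusted p under 0.05, against 1.83% of all genes. In limma this p was 0.0477 and the adjusted p was 1. *SMAD4*, the partner of the TGF-beta SMADs that induce *CDKN2B*, was the lowest at -0.34 (8.25 and 8.13 against 8.63 and 8.44), also without overlap. *EZH2*, the Polycomb methyltransferase that represses *CDKN2A*, was at -0.27 without overlap (10.02 and 9.85 against 10.29 and 10.13). The other measured Polycomb genes of the list, *BMI1* (0.04) and *CBX7* (0.01), overlapped. *MYC*, a repressor of *CDKN1A*, was at 0.17 without overlap (11.87 and 11.64 against 11.63 and 11.55). With *SMAD3* (-0.12), 5 of the 11 genes were without overlap. Of 4 neighbors of the INK4 genes on 9p21, 2 were measured, *DMRTA1* (-0.06) and *IFNE* (-0.12). Over the 54 genes, 9 were lower and 5 higher without overlap, against 13.8% and 13.5% of all genes, shares close to the background.

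**Figure D5:**
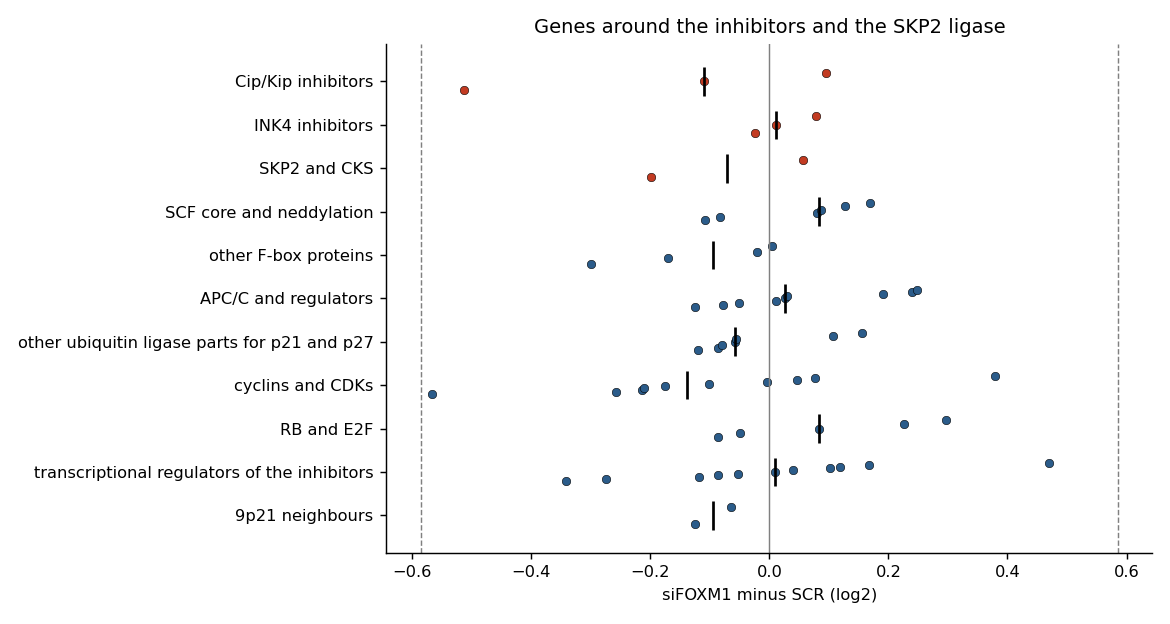
Silenced minus control differences in TE-1 cells on the log2 scale for each measured gene of the inhibitor, SKP2 and CKS groups (red) and of the further lists (blue), with a bar at each median and dashed lines at 1.5-fold. Every point lies between the dashed lines, with *CCNB1* (-0.57) and *CDKN1A* (-0.51) the lowest and *KLF6* (0.47) and *CDK6* (0.38) the highest.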

How the data were processed

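Total RNA of TE-1 cells was profiled on 4 Affymetrix arrays, 2 per group, and groups and replicate numbers came from the labels. Per the submitters' processing notes, RMA (robust multi-array average) was run in Affymetrix Expression Console with genome build hg18, and the authors deposited log2 expression values of 22011 probe sets. Versions are not given in the sources used here. Which arrays were normalized together is also not given there. A probe set was named where the platform annotation gave 1 symbol (14432 probe sets, 14232 genes), and a gene with several took the one with the highest mean. Every probe set was tested with limma 3.58.1 in R 4.3.3 (4.87 degrees of freedom) with Benjamini-Hochberg adjustment, after a check of the code on simulated data. The simulated arrays had independent noise and no difference between replicate numbers. The check therefore does not show how the test behaves on these arrays. No pair of columns was identical. Differences are siFOXM1 minus SCR in log2 units, and the study's methods set the 1.5-fold criterion. The 2 arrays per group limit the precision. Named genes are the 8 measured members, FOXM1, the highest and lowest gene of each further list and any 1.5-fold apart. All measured cell type markers are also given. CUL1, CAND1, FBXW7, CDC20, CCND3, CCNE1, CDK2, EZH2, BMI1, CBX7, MYC and SMAD3 were added after their values were seen. The members and all lists were chosen with earlier results of these data known. Promoter windows came from RefSeq (GRCh38.p14), without the 50 bases after the start site.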

Additional observations from a re-analysis of the deposited data

How the results depend on the processing

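Centring each array on its median, quantile normalization and a ratio of linear means left the direction of every one of the 8 genes and the counts of 0 genes apart as they were. Averaging of probe sets by gene and a 2-fold criterion could change nothing, since each of the 8 genes had 1 row and none was 1.5-fold apart. Leaving out 1 array at a time gave ranges of -0.61 to 0.39 for CDKN1B, -0.053 to 0.21 for CDKN2A, -0.21 to 0.16 for CDKN2B, -0.078 to 0.10 for CDKN2D and -0.58 to 0.70 for CKS2, each across 0. CDKN1A (-0.65 to -0.38), SKP2 (-0.33 to -0.06), CDKN1C (0.03 to 0.16) and FOXM1 (-2.38 to -1.58) kept their sign. The median of the 8 genes ranged from -0.21 without SCR replicate 2 to 0.11 without SCR replicate 1, and the counts of lower and of higher genes each ranged from 0 to 1. The cause was not tested beyond the imbalance of replicate numbers that this brings. With the replicate number as a block the differences were the same by construction, and 0 probe sets passed an adjusted p of 0.05 (1576 had an unadjusted p under 0.05, against 680 without the block). Intensity trend with robust estimation and a filter that kept the upper range of probe sets, from the median of the arrays, also gave 0. In the replicate block, CDKN1A had an unadjusted p of 0.00911 (adjusted p = 0.665) and CKS2 an interval of -0.25 to 0.36 in limma. Deviations of the arrays with the same number correlated at 0.34 across probe sets, but no source states that the numbers mark a shared day or culture. The values come from 2 arrays per group, and CKS1B and CDKN2C were not analysed here.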

Other observations

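Besides CKS2, 7 genes had a difference between replicate numbers of at least 1.21 in the same direction, and they were named after their values were seen. ID1, an inhibitor of helix-loop-helix factors, had log2 expression of 9.52 and 10.10 on the arrays numbered 1 and 8.53 and 8.50 on those numbered 2. The chemokine gene CXCL8 had 8.83 and 7.69 against 6.72 and 6.92, and HOXA2 had 8.21 and 8.60 against 7.19 and 6.97 (siFOXM1 first in each case). The others, FAM223A, BTNL8, C17orf78 and TUBA1B, lay below the median of the arrays on every array.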
